A study of Rattus norvegicus with 9 samples.

Results

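The metalloproteinases of the matrix (Mmp), the membrane-bound disintegrin proteases (Adam), the secreted Adamts proteases with their protease-free Adamtsl relatives, and the tissue inhibitors (Timp) were examined in rat dorsal root ganglia (DRG). Members were all genes whose symbol is Mmp, Adam, Adamts, Adamtsl or Timp followed by a number. The gene table held 69 of them among 20194 genes, with 20 Mmp, 21 Adam, 19 Adamts, 5 Adamtsl and 4 Timp genes. Of these, 48 reached 1 FPKM (a fragment count scaled to transcript length and library size) in at least 1 library and were tested, and the other 21 stayed below it in all 9 libraries.

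Adult male Sprague-Dawley rats aged 8 to 10 weeks were used, and RNA came from whole ipsilateral ganglia of lumbar levels 4 to 6, with 3 libraries in each of 3 groups. The sham group had no nerve injury. The SNI group had the spared nerve injury, in which the tibial and common peroneal branches of the sciatic nerve are tied and cut while the sural branch is left intact. The SNI + G15 group had the same injury followed by intrathecal G15, an antagonist of the G protein-coupled oestrogen receptor GPER. According to the labels, catheters were placed on day 5 of SNI and drugs were given in 2% DMSO for 24 h. The labels tag the sham and SNI libraries as controls for G15 without stating whether these rats received a catheter or vehicle, so catheter, vehicle and drug cannot be told apart in comparisons with the SNI + G15 group. The methods of the study give 3 rats per group for sequencing, and its supplement lists more. The libraries were not marked as pools, so how many rats stand behind each is not known. The titles of all 3 SNI + G15 libraries carry the name SNI1, whereas the sham and SNI titles are numbered one by one. Whether the SNI + G15 libraries share a rat or a batch is not stated, and the tests treat them as separate. The p-values measure the spread between these libraries.

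Estimated counts summed to between 18484557 and 18756736 per library. SNI + G15 replicate 3 stood apart from the other libraries of its group: the chi-square of its counts against theirs per degree of freedom was 7.89 and 8.13, compared with 3.005 between the other two. In the comparisons of the SNI + G15 group, the calls that change without it are given beside the others. The summed FPKM of the macrophage marker list was 126 to 138 for sham, 291 to 311 for SNI and 311 to 336 for SNI + G15 libraries. No marker of any cell type list was at 0 in all 9 libraries. A list of meningeal, mesothelial and perineurial markers, tissues that lie around the ganglion, summed to 995 to 1109, 204 to 214 and 217 to 230, respectively. In whole ganglia, fewer cells of a type and less RNA per cell cannot be told apart.

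Metalloproteinases use a zinc ion to cut proteins outside the cell. Secreted MMPs degrade collagens, laminins and other matrix proteins, membrane-type MMPs act at the cell surface, and ADAMs such as ADAM10 and ADAM17 release the outer parts of membrane proteins, including cytokines and growth factors. ADAMTS proteases cut proteoglycans of the aggrecan family or process procollagens, and TIMPs bind and block the active enzymes. ADAM11, ADAM22 and ADAM23 have no protease activity and serve on neurons as receptors for secreted LGI proteins. In injured nerve and ganglion, these enzymes are known for remodelling of matrix and myelin, for leukocyte entry and for the release of inflammatory mediators.

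Several secreted MMP genes lie side by side on rat chromosome 8, and the promoters of many of them are known to carry a binding site for AP-1, the Fos/Jun transcription factor. The 250 bases before the start sites of 3 of them are shown because these genes gave the largest changes in both directions after injury: Mmp3 and Mmp12 were close to undetected in the sham group and present after SNI, and Mmp13 was lower after SNI. Sequences are from RefSeq, build GRCr8, plus strand, 5′ to 3′, with the letters TGANTCA in capitals. They cover chr8:12925031-12925280 for Mmp3, chr8:12866402-12866651 for Mmp12 and chr8:12782579-12782828 for Mmp13.
Mmp3: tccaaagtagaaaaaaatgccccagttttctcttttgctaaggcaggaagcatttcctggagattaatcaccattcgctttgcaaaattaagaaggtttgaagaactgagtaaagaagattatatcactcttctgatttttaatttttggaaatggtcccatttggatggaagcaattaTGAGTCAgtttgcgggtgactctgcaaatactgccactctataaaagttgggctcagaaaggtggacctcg
Mmp12: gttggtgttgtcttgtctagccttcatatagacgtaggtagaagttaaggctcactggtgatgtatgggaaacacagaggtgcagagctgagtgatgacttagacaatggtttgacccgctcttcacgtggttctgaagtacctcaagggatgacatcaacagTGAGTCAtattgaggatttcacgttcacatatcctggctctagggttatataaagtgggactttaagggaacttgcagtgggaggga
Mmp13: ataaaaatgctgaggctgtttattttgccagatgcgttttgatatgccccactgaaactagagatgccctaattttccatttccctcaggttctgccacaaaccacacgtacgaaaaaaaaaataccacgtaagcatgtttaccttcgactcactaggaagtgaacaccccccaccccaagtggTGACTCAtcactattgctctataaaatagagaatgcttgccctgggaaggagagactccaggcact
The motif, which is its own reverse complement so that both strands are read at once, begins 71 bases before the start of Mmp3, 87 before that of Mmp12 and 66 before that of Mmp13. Mmp10, Mmp20 and Mmp7 of the same stretch also hold it, and Mmp8, which lies between Mmp10 and Mmp20, does not. The start sites of these 7 genes run from position 12782829 for Mmp13 to 13133043 for Mmp7. Over all members, 7 of 59 promoters from 49 matched genes held the motif, the remaining one being Adam19, compared with 6.34% of 33469 promoters in the whole table. Mmp3, Mmp12 and Mmp13 share the motif and moved in different directions, and Mmp20 had at most 1 count in any library. A match of letters is a description of the sequence only. Mmp2, Mmp9, Mmp14, Mmp16, Mmp17, Mmp19, Adam9, Adam11, Adam23, Adamts5, Adamts8 and Adamts15 were among the members with no promoter entry.

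Levels covered a wide range, from a mean of 311 FPKM over the 9 libraries for Timp2, an inhibitor made by many cell types, to under 1 FPKM. After Timp2 came Timp1 (186 FPKM), Timp3 (100 FPKM), Adam23 (81.4 FPKM), Adam11 (72.1 FPKM), Mmp15 (63.9 FPKM), Adam15 (40.3 FPKM), Mmp14 (36.1 FPKM), Adam19 (34.2 FPKM) and Adam22 (31.2 FPKM). In the sham group, the 4 Timp genes summed to 484 ± 16.8 FPKM (SD, n = 3), the Adam genes to 350 ± 10.97, the Mmp genes to 165 ± 4.65, the Adamts genes to 38.7 ± 0.68 and the Adamtsl genes to 26.9 ± 0.79. Inhibitor transcripts and those of the protease-free neuronal ADAMs thus stood above most of the active enzymes. The 3 neuronal receptors Adam11, Adam22 and Adam23 gave 226 ± 8.70 of the Adam sum in the sham group.

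**Figure D1:**
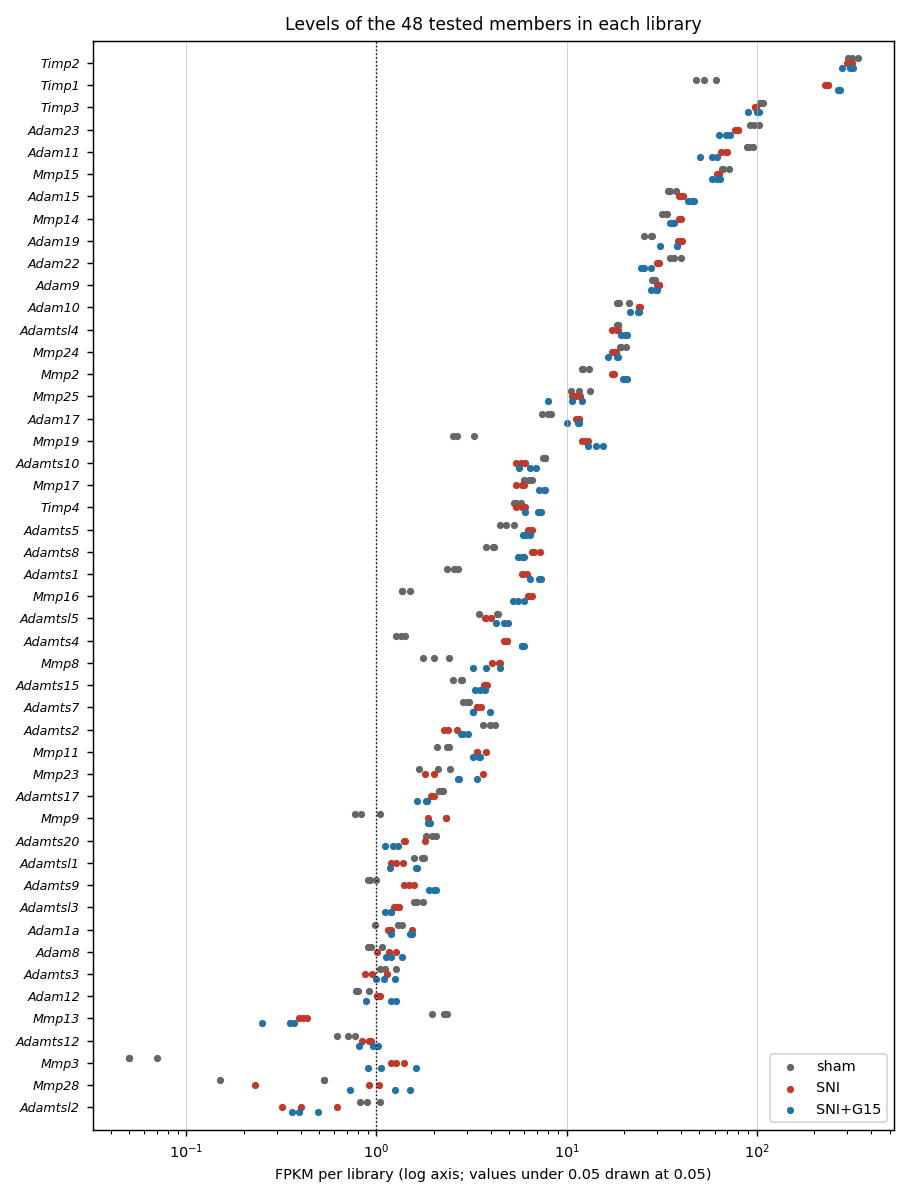
FPKM of the 48 tested members in each of the 9 libraries (points, log axis) for sham, SNI and SNI + G15, ordered by the mean over all libraries. The dotted line is 1 FPKM, the level a member had to reach in at least 1 library, and the 3 sham values of Timp1, Mmp19, Mmp16 and Adamts4 lie to the left of all values after injury, with those of Mmp13 to the right.

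The comparison of the SNI and sham groups asks how the nerve injury changed these genes. SNI raised Timp1, Mmp19, Mmp16, Mmp9 and Mmp8 and the proteoglycanase genes Adamts4 and Adamts1, and lowered Adamts2 and the neuronal receptors Adam11, Adam22 and Adam23. Mmp3, a stromelysin gene, and Mmp12, the macrophage elastase gene, came up from the detection limit, and Mmp13 and Adamtsl2 stood lower. In edgeR's quasi-likelihood test, 35 of 48 tested members had an adjusted p below 0.05, where 45.7% of all 14305 tested genes did. The test called 22 members higher (23.3% of all tested genes were higher) and 13 lower (22.4% of all tested genes were lower). Members that passed the filter through a single group (Mmp13, Adamts12 and Adamtsl2) or through both injured groups only (Mmp3, Adam12, Adamts9 and Mmp28) had to differ to some extent, so these counts include calls that the filter favoured. The counts read here are those of the 41 members that reached 1 FPKM in every group. Of them, 29 were called (70.7%, compared with 45.6% of the 13315 genes that did so), 18 higher (43.9%, compared with 22.5%) and 11 lower (26.8%, compared with 23.1%), and their median log2 fold change was 0.06, compared with -0.01 over those genes. For the other 7 members, the tests against sham that are printed come from the fit without the FPKM filter.

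**Figure D2:**
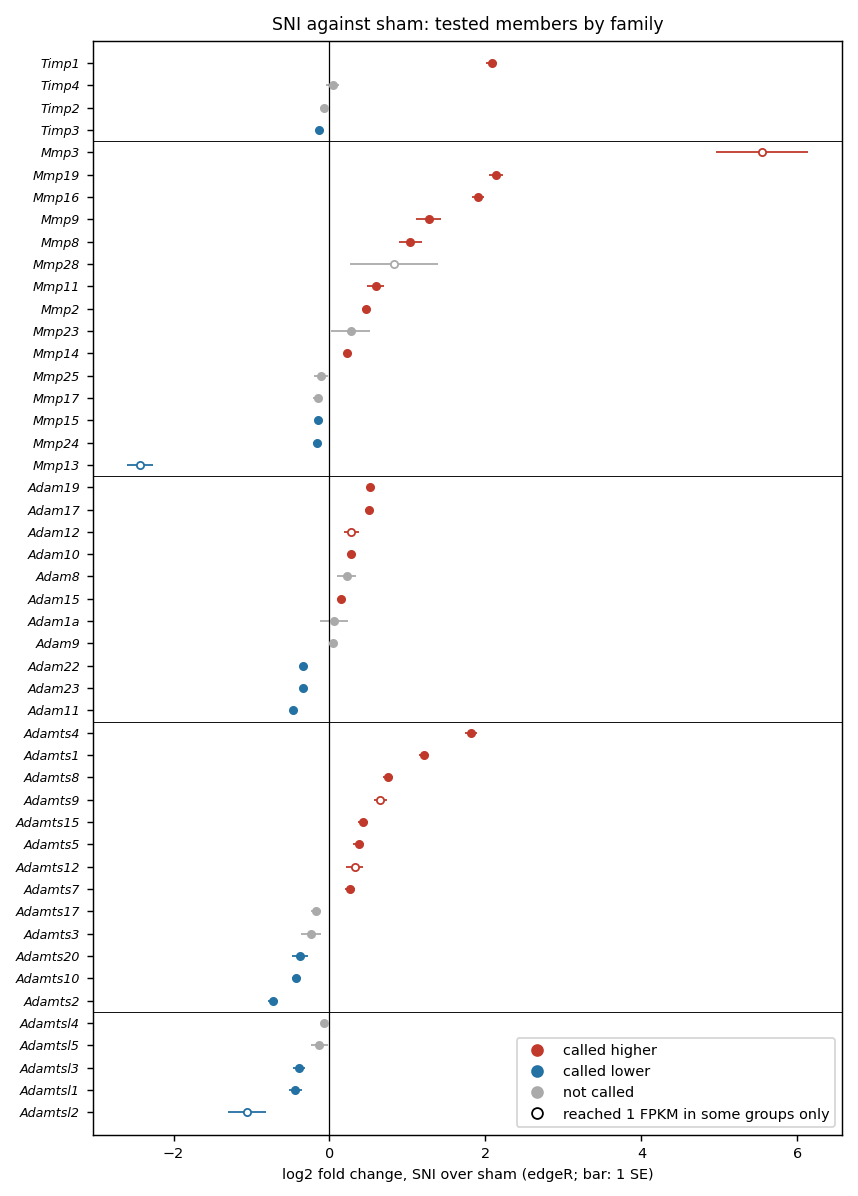
log2 fold change of SNI over sham for the 48 tested members, grouped by family from Timp (top) to Adamtsl (bottom), with bars of 1 standard error and colours for the call at adjusted p below 0.05. Adamts and Mmp hold most members to the right of 0, the called Adamtsl genes all lie to the left, and the fitted value of Mmp3 rests on 2 sham counts and depends on the fit. Open symbols mark the 7 members that reached 1 FPKM in some groups only, whose calls the filter favoured.

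Among the inhibitors, only Timp1 rose. TIMP1 blocks most secreted MMPs and also acts as a growth factor, and its gene is known to respond to inflammatory signals. It measured 48.2, 60.8 and 52.6 FPKM in the sham libraries, 238, 228 and 236 FPKM in the SNI libraries, and 267, 272 and 273 FPKM in the SNI + G15 libraries. The groups did not overlap, and the SNI libraries were 4.23-fold above sham (log2 fold change 2.08 ± 0.07 SE, edgeR adjusted p = 4.39e-09). The log2 fold change lay between 2.01 and 2.17 over 14 alternative analyses, all of which called it. Timp3, the matrix-bound inhibitor that also blocks ADAM17, went from 105 ± 2.11 FPKM to 98.5 ± 1.02 FPKM (log2 fold change -0.13 ± 0.03, adjusted p = 0.00472). Timp2 and Timp4 were not called, with log2 fold changes of -0.07 ± 0.05 (adjusted p = 0.244) and 0.04 ± 0.08 (adjusted p = 0.713). The Timp sum went from 484 to 649 FPKM, whereas without Timp1 it was 430 ± 19.8 and 414 ± 10.7 FPKM (exact permutation test, two-sided, p = 0.4). Timp1 was thus the third inhibitor transcript by level in sham ganglia, and the second, after Timp2 (310 ± 10.3 FPKM), in SNI ganglia.

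Of the 12 Mmp genes that reached 1 FPKM in every group, 7 were called higher and 2 lower (22.5% and 23.1% of all genes that did so). Mmp19, a secreted protease that cuts basement membrane proteins, measured 2.64, 3.25 and 2.54 FPKM in sham and 13.0, 12.1 and 12.5 FPKM in SNI libraries. The increase was 4.39-fold (log2 fold change 2.14 ± 0.09, adjusted p = 2.33e-08), and the groups lay far apart relative to their spread. Mmp16, a membrane-type MMP that can activate pro-MMP2, measured 1.5, 1.37 and 1.37 FPKM in sham and 6.27, 6.56 and 6.34 FPKM in SNI libraries, a 3.74-fold increase (adjusted p = 1.34e-08). Its transcripts also shifted: the share of the curated RefSeq transcript in the gene's FPKM was 61.0 ± 4.16% in the sham group and 74.0 ± 2.00% in the SNI group (SD, n = 3), with the predicted transcript giving the rest. Both transcripts were higher in FPKM after SNI, the predicted one at 0.48 to 0.65 in sham and 1.54 to 1.85 in SNI libraries. The 3 shares of each group did not overlap, which was a condition for reporting a share, and no test was run on them. In the sham libraries both transcripts were under 1 FPKM, so their shares rest on low values.

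The gelatinases, which digest denatured collagen and collagen IV, both rose. Mmp9, stored in neutrophils and made by macrophages, measured 0.83, 1.04 and 0.77 FPKM in sham and 2.33, 1.86 and 2.32 FPKM in SNI libraries (log2 fold change 1.27 ± 0.16, adjusted p = 9.54e-05). Mmp2, which is made by fibroblasts and glia, stood about an order of magnitude higher and rose less, from 12.5 ± 0.52 to 17.6 ± 0.31 FPKM (log2 fold change 0.47 ± 0.05, adjusted p = 2.72e-05). Mmp8, the neutrophil collagenase, measured 2.00, 1.76 and 2.40 FPKM in sham and 4.39, 4.44 and 4.06 FPKM in SNI libraries (log2 fold change 1.03 ± 0.15, adjusted p = 0.000246). Beside these genes, 9 of 10 macrophage markers and 4 of 6 neutrophil markers were called higher and none lower, at medians of 1.23 and 0.61 on the log2 scale. The neutrophil list summed to 121 to 145 FPKM in sham and 189 to 224 FPKM in SNI libraries. All 6 erythroid markers were higher too (median 1.90). The part of these cells in the Mmp and Timp1 changes was not tested.

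The stromelysin genes Mmp3 and Mmp10 and the macrophage elastase gene Mmp12 came up from the detection limit. Mmp3, stromelysin-1, which cuts proteoglycans and activates other pro-MMPs, had 2, 0 and 0 estimated counts in the sham libraries and rounded counts summing to 113 over the SNI libraries. The ratio of the summed counts was 56.5, with an exact 95% counting interval from 15.3 to 472 (edgeR adjusted p = 1.47e-05 in the fit without the FPKM filter). In FPKM, the SNI libraries stood at 1.40, 1.27 and 1.20 and the sham libraries at 0.07, 0 and 0. Mmp12, macrophage elastase, did not reach the filter. It had 0 counts in every sham library and 14, 10 and 12 counts in the SNI libraries, at least 12-fold higher against 3 counts over the sham group (adjusted p = 0.000382 in the fit without the FPKM filter). Mmp10, stromelysin-2, had 0 counts in every sham library and 10 rounded counts over the SNI group, at least 3.33-fold higher. For Mmp7, with 0 counts in sham and 2, 4 and 1 in SNI libraries, the bound was 2.33-fold. In the fit without the FPKM filter, edgeR called Mmp10 (adjusted p = 0.0193) and did not call Mmp7 (adjusted p = 0.0595). The interval covers counting error only. The bounds set the SNI counts as they stand against 3 counts over the sham group, so they leave out counting error in the SNI group.

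Mmp13 went the other way. This collagenase, which opens fibrillar collagen, measured 2.34, 2.26 and 1.97 FPKM in sham libraries and 0.39, 0.41 and 0.43 FPKM in SNI libraries, from 113, 110 and 96 counts to 19, 20 and 21. All SNI values lay far below all sham values (log2 fold change -2.44 ± 0.16, adjusted p = 4.81e-07 in the fit without the FPKM filter). Beside it, all 4 tested markers of the meningeal, mesothelial and perineurial list were called lower (median log2 fold change -2.00). Of 8 fibroblast markers, 4 were lower and 2 higher (median -0.13). The part of tissue around the ganglion in this value was not tested. Among the remaining Mmp genes, Mmp11 rose (log2 fold change 0.59 ± 0.11, adjusted p = 0.00119), and the membrane-type Mmp14, an activator of pro-MMP2, rose slightly (0.23 ± 0.04, adjusted p = 0.00131). The membrane-type genes Mmp15 (-0.15 ± 0.04, adjusted p = 0.0151) and Mmp24 (-0.16 ± 0.04, adjusted p = 0.0117), the latter known for its expression in neurons, fell slightly. Mmp15 was not called without SNI replicate 2 or 3 (adjusted p = 0.0605 and 0.0511), nor Mmp24 without SNI replicate 1 (adjusted p = 0.0562). The sum over all Mmp genes went from 165 ± 4.65 to 189 ± 0.999 FPKM with no overlap (exact permutation test, two-sided, p = 0.1, the smallest that 3 against 3 libraries can give).

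Of the 10 Adam genes that reached 1 FPKM in every group, 4 were called higher and 3 lower (22.5% and 23.1% of all genes that did so). Adam10, Adam17 and Adam19 were among the higher ones, and the lower ones were the neuronal receptors. Adam17, the enzyme that releases TNF and EGF receptor ligands, measured 8.30, 7.95 and 7.41 FPKM in sham and 11.2, 11.6 and 11.7 FPKM in SNI libraries (log2 fold change 0.51 ± 0.05, adjusted p = 2.28e-05). Adam10, the sheddase of Notch, APP and N-cadherin, went from 19.5 ± 1.46 to 24.1 ± 0.14 FPKM (log2 fold change 0.27 ± 0.05, adjusted p = 0.00183). Adam19, a neuregulin-processing enzyme also called meltrin beta, went from 27.1 ± 1.40 to 39.8 ± 0.98 FPKM (0.52 ± 0.04, adjusted p = 4.34e-06). Adam15 was called at a small change (0.14 ± 0.05, adjusted p = 0.031) that did not pass the test without sham replicate 1 or 2 or without SNI replicate 1 or 3 (adjusted p = 0.0964, 0.073, 0.112 and 0.0871). Adam8, a leukocyte sheddase, was not called (0.22 ± 0.12, adjusted p = 0.175), and neither was Adam9 (0.05 ± 0.04, adjusted p = 0.352).

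The neuronal receptors fell together. Adam11 measured 91.3, 89.2 and 95.8 FPKM in sham and 68.7, 65.0 and 69.7 FPKM in SNI libraries (log2 fold change -0.47 ± 0.04, adjusted p = 5.25e-06). Adam23 measured 102, 92.5 and 96.5 FPKM in sham and 76.7, 79.3 and 80.2 FPKM in SNI libraries (-0.34 ± 0.04, adjusted p = 5.09e-05). Adam22, which anchors LGI1 at synapses and LGI4 on axons, measured 39.8, 35.1 and 36.6 FPKM in sham and 29.9, 30.6 and 30.4 FPKM in SNI libraries (-0.34 ± 0.05, adjusted p = 0.000139). No SNI library reached the lowest sham library for any of the 3 genes, and all 14 alternative analyses called each of them. Of their ligands, Lgi3 fell from 103 ± 1.11 to 65.4 ± 0.86 FPKM (log2 fold change -0.69 ± 0.03, adjusted p = 7.76e-08) and Lgi1 was slightly lower (-0.16 ± 0.05, adjusted p = 0.0297). The Schwann cell and satellite glial ligand Lgi4 rose (0.28 ± 0.04, adjusted p = 8.36e-05), as did Lgi2 (0.29 ± 0.06, adjusted p = 0.00188). Beside them, 6 of 10 sensory neuron markers were called lower and 2 higher (median log2 fold change -0.28). The summed FPKM of this list overlapped between the groups, at 9898 to 10227 in sham and 9998 to 10181 in SNI libraries. Of 8 Schwann cell markers, 6 were called lower and 0 higher (median -0.76), with summed FPKM of 5352 to 5464 in sham and 2991 to 3048 in SNI libraries. The part of these cells in the receptor and ligand values was not tested.

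The Adamts genes were low in FPKM. Of the 11 that reached 1 FPKM in every group, 6 were called higher and 3 lower (22.5% and 23.1% of all genes that did so). Adamts4, an aggrecanase that cuts aggrecan, brevican and versican, measured 1.34, 1.41 and 1.26 FPKM in sham and 4.85, 4.67 and 4.86 FPKM in SNI libraries, a 3.52-fold rise (log2 fold change 1.81 ± 0.08, adjusted p = 3.93e-08). Adamts1, a versican-cutting enzyme, measured 2.56, 2.36 and 2.67 FPKM in sham and 5.93, 5.81 and 6.21 FPKM in SNI libraries, a 2.32-fold rise (1.21 ± 0.07, adjusted p = 2.00e-07). Both sets of values lay clear of each other in every library. Smaller rises were found for Adamts8 (0.75 ± 0.06, adjusted p = 5.02e-06), Adamts15 (0.43 ± 0.06, adjusted p = 0.000233) and the aggrecanase Adamts5 (0.37 ± 0.07, adjusted p = 0.00171). Adamts9, which did not reach 1 FPKM in any sham library, measured 0.99, 0.93 and 0.90 FPKM in sham and 1.58, 1.49 and 1.39 FPKM in SNI libraries (0.64 ± 0.09, adjusted p = 0.000146 in the fit without the FPKM filter). Adamts2, the procollagen N-proteinase, fell from 3.94, 3.65 and 4.18 to 2.28, 2.38 and 2.65 FPKM (-0.73 ± 0.06, adjusted p = 6.91e-06). Adamts10, known for its role with fibrillin microfibrils, also fell (-0.42 ± 0.05, adjusted p = 0.000111). Adam9, Adamts10, Adamts15 and 3 Adamtsl genes named next (Adamtsl1, Adamtsl3 and Adamtsl4) fall outside the rule for named genes and were chosen after their values were seen.

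Of the 4 Adamtsl genes that reached 1 FPKM in every group, 2 were called lower and 0 higher (23.1% and 22.5% of all genes that did so). These genes lack the protease domain, and several bind fibrillin. Adamtsl2 had 0.89, 0.82 and 1.04 FPKM in sham and 0.32, 0.40 and 0.62 FPKM in SNI libraries (log2 fold change -1.06 ± 0.23, adjusted p = 0.00425 in the fit without the FPKM filter), and it reached 1 FPKM in a single sham library. Adamtsl1 (-0.44 ± 0.08, adjusted p = 0.00144) and Adamtsl3 (-0.40 ± 0.08, adjusted p = 0.00189) were lower, while Adamtsl4, the most abundant with 18.6 ± 0.06 FPKM in sham, was not called (-0.07 ± 0.04, adjusted p = 0.236).

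**Figure D3:**
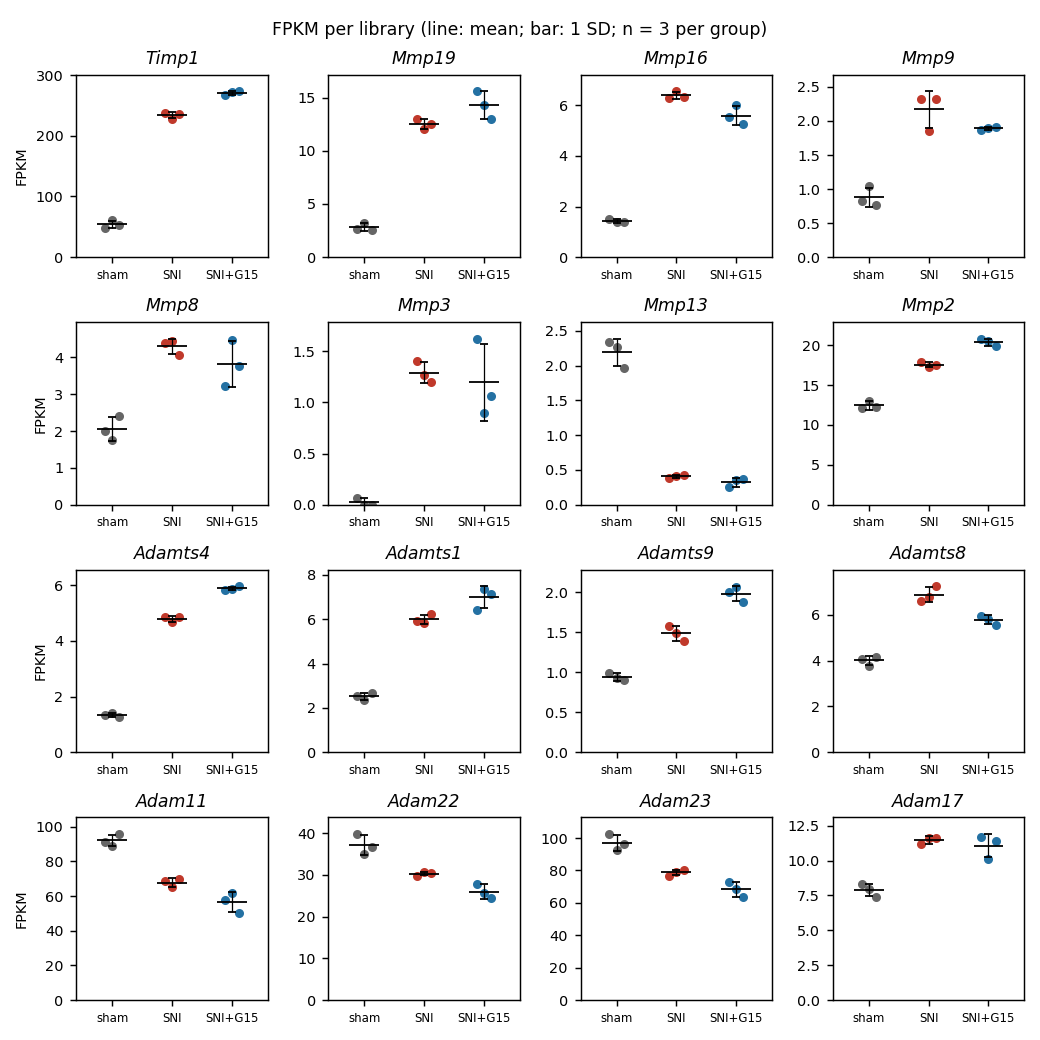
FPKM of 16 members in each library (points) with the group mean (line) and SD (bar, n = 3) for sham, SNI and SNI + G15, each axis starting at 0. Timp1, Mmp19, Mmp16, Adamts4 and Adamts1 stand low in all 3 sham libraries and high in all 6 injured ones, Mmp13 shows the opposite, and Adam11, Adam22 and Adam23 step down from sham to SNI to SNI + G15.

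The comparison of the SNI + G15 and SNI groups asks what changed after the GPER antagonist in injured rats. The differences were small: no called member changed by 0.5 or more on the log2 scale. edgeR called 12 of 48 tested members, where 15.2% of all tested genes were called, with 8 higher (7.98% of all tested genes) and 4 lower (7.25%). Among the 41 members that reached 1 FPKM in every group, 11 were called (26.8%, compared with 15.4% of the genes that did so), 7 higher (17.1%, compared with 8.03%) and 4 lower (9.76%, compared with 7.41%). Their median log2 fold change was -0.01, compared with 0.01 over those genes. The twelfth call, Adamts9, reached 1 FPKM in both groups compared. Called higher were Timp1, Mmp2, Mmp17, Adam15, Adamts1, Adamts4, Adamts9 and Adamtsl5, and called lower were Adam11, Adam22, Adam23 and Adamts8. Mmp17 and Adamtsl5 fall outside the rule for named genes and, like the Adamts8 and Adamts9 values here, were singled out after their calls were seen. Without SNI + G15 replicate 3, Adamts1 was not called (adjusted p = 0.074), and 4 members were called in addition: Mmp19 (0.26 ± 0.06, adjusted p = 0.0173), Adamtsl1 (0.35 ± 0.08, adjusted p = 0.0194) and Adamtsl4 (0.18 ± 0.04, adjusted p = 0.0209) higher, and Mmp14 lower (-0.13 ± 0.04, adjusted p = 0.049).

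**Figure D4:**
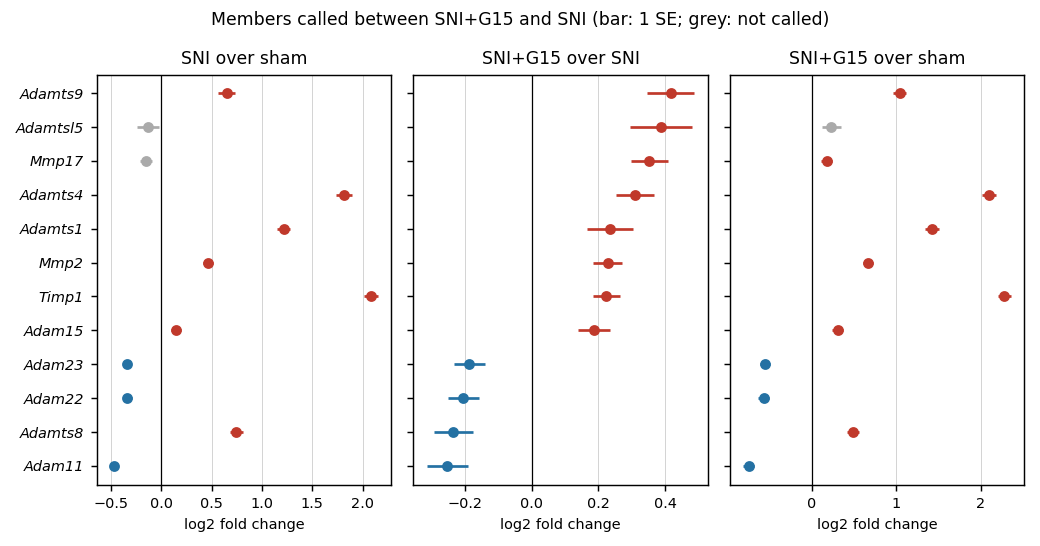
log2 fold changes with 1 standard error for the 12 members called between SNI + G15 and SNI, shown in the comparisons SNI over sham (left), SNI + G15 over SNI (middle) and SNI + G15 over sham (right), with members that were not called in grey. The panels have their own scales, share groups and are not independent, and in the middle panel no called member reaches 0.5 in either direction.

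Timp1 was 1.17-fold higher in the SNI + G15 group (log2 fold change 0.22 ± 0.04, adjusted p = 0.00748), and all 3 SNI + G15 libraries, at 267, 272 and 273 FPKM, exceeded the highest SNI library at 238. The call held in all 14 alternatives, with adjusted p between 0.000587 and 0.0491. Mmp17, a GPI-anchored MMP, measured 5.86, 5.45 and 6.00 FPKM in SNI and 7.64, 7.66 and 7.15 FPKM in SNI + G15 libraries (0.35 ± 0.06, adjusted p = 0.00431) and was also called in all 14 alternatives. Mmp2 measured 17.9, 17.3 and 17.6 FPKM in SNI and 20.7, 20.5 and 19.9 FPKM in SNI + G15 libraries (0.23 ± 0.04, adjusted p = 0.0102), a call lost without SNI replicate 2 or 3 (adjusted p = 0.0575 and 0.0526). Adamts9, a protease of versican, had 1.58, 1.49 and 1.39 FPKM in SNI and 2.00, 2.06 and 1.88 FPKM in SNI + G15 libraries (0.42 ± 0.07, adjusted p = 0.00619). Adamts4 went from 4.79 ± 0.11 to 5.88 ± 0.06 FPKM (0.31 ± 0.06, adjusted p = 0.00857). Leaving out a library did not end the calls of Adamts9 and Adamts4, but Adamts9 was not called in limma-trend with either pseudocount (adjusted p = 0.0507 and 0.0518), nor Adamts4 in the DESeq2 Wald test (adjusted p = 0.0504). Adamts1 was at the threshold (0.24 ± 0.07, adjusted p = 0.0492), and 10 of 14 alternatives did not call it, among them those without any 1 SNI library or SNI + G15 replicate 2 or 3. Adam15 (0.19 ± 0.05, adjusted p = 0.032) and Adamtsl5 (0.39 ± 0.09, adjusted p = 0.0258) lost the call in 5 and 7 of 14 alternatives, respectively, both without SNI replicate 2 or 3 or SNI + G15 replicate 2, and Adam15 also without SNI replicate 1.

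The neuronal receptors were lower again. Adam11 measured 57.9, 61.6 and 50.2 FPKM in the SNI + G15 libraries (log2 fold change -0.25 ± 0.06 against SNI, adjusted p = 0.0273), Adam22 27.9, 25.7 and 24.5 FPKM (-0.20 ± 0.05, adjusted p = 0.0221) and Adam23 72.6, 68.8 and 63.6 FPKM (-0.19 ± 0.05, adjusted p = 0.0275). In each case all SNI + G15 libraries lay below all SNI libraries, and SNI + G15 replicate 3 was the lowest. Without replicate 3, the log2 fold changes were -0.19, -0.17 and -0.15 (adjusted p = 0.0139, 0.0175 and 0.014). Their summed FPKM went from 177 ± 2.97 to 151 ± 10.96 (exact permutation test, two-sided, p = 0.1, the smallest possible). Adamts8 was lower by 0.23 on the log2 scale (SE 0.06, adjusted p = 0.0294), the one called member whose rise after SNI was followed by a lower value after G15. Of 14 alternatives, 6 did not call Adam11, 6 did not call Adamts8, and 5 each did not call Adam22 and Adam23. With any of the 3 SNI libraries left out, 0 members were called lower, and with SNI + G15 replicate 2 left out 1 was. Members called higher numbered 6, 4 and 4 without SNI replicate 1, 2 or 3, 5 without SNI + G15 replicate 2 and 10 without SNI + G15 replicate 3. Calls over all tested genes in these fits are not given here. A loss among members thus cannot be told apart from a general loss of calls. Among the 10 sensory neuron markers, 2 were called higher and 0 lower in this comparison (median log2 fold change 0.03).

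Transcript length moved with this comparison. Tested genes were split into 4 equal groups by the length that their count and FPKM imply. The median log2 fold change was 0.14 in the shortest group, then 0.04 and -0.02, and -0.10 in the longest. Without SNI + G15 replicate 3 the medians were 0.09, 0.03, -0.01 and -0.07. Timp1 lies in the shortest group, Adam22, Adam23, Adamts1, Adamts8 and Adamts9 in the longest, and Adam11, Adam15, Adamts4, Adamtsl5, Mmp2 and Mmp17 in the third. All 8 fibroblast markers were called higher as well (median log2 fold change 0.36), their summed FPKM spanning 463 to 464 for SNI libraries against 624 to 647 for SNI + G15 libraries, as were 4 of 6 pericyte and smooth muscle markers (median 0.37, none lower), 5 of 8 Schwann cell markers (median 0.16, none lower) and 3 of 4 tested mast cell markers (median 2.70, none lower). All 6 erythroid markers were called lower (median -1.22), their summed FPKM spanning 326 to 334 for SNI libraries against 194 to 228 for SNI + G15 libraries and 97.3 to 101 for sham libraries. Of the 4 tested meningeal, mesothelial and perineurial markers, 2 were called higher and 0 lower (median 0.62). Of 5 tested T cell markers, 2 were called higher and 2 lower (median -0.90). The part of length and of these cells in the member values was not tested. Members with large injury changes that were not called here were Mmp19 (0.20 ± 0.07, adjusted p = 0.0855, and 0.0173 without SNI + G15 replicate 3), Mmp16 (-0.19 ± 0.06, adjusted p = 0.0744), Mmp9 (-0.18 ± 0.12, adjusted p = 0.324), Mmp8 (-0.15 ± 0.14, adjusted p = 0.475), Mmp3 (-0.11 ± 0.25, adjusted p = 0.799) and Mmp13 (-0.34 ± 0.28, adjusted p = 0.431). The sheddases Adam10 (-0.05 ± 0.05, adjusted p = 0.494) and Adam17 (-0.04 ± 0.06, adjusted p = 0.713) were not called either.

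The comparison of the SNI + G15 and sham groups shows where the injured and treated ganglia stood relative to uninjured ones. edgeR called 35 of 48 tested members (43.2% of all tested genes), 23 higher (21.4%) and 12 lower (21.9%), again including calls that the filter favoured. Among the 41 members that reached 1 FPKM in every group, 29 were called (70.7%, compared with 42.8% of the genes that did so), 19 higher (46.3%, compared with 20.2%) and 10 lower (24.4%, compared with 22.5%). The comparison shares the sham libraries with SNI against sham, so its values stand beside the first and are no separate evidence. Transcript length moved here too: the median log2 fold changes of the length groups, from shortest to longest, were 0.098, 0.004, -0.029 and -0.072. The part of length in the member values was not tested. Timp1 was 4.86-fold above sham (log2 fold change 2.28 ± 0.08), Mmp19 4.97-fold (2.31 ± 0.10), Adamts4 4.29-fold (2.10 ± 0.08), Mmp16 3.24-fold (1.69 ± 0.08) and Adamts1 2.69-fold (1.43 ± 0.08), with edgeR adjusted p between 6.23e-08 and 8.98e-07 for the 4 proteases and 2.55e-08 for Timp1. Mmp3 counts summed to 104 over the SNI + G15 libraries, a ratio of 52.0 to sham (95% counting interval 14.0 to 435). Mmp12 had 13, 11 and 14 counts, at least 12.7-fold higher against 3 counts over the sham group. That bound leaves out counting error in the SNI + G15 group. Mmp13 stood at 0.25, 0.35 and 0.37 FPKM (log2 fold change -2.80 ± 0.19, adjusted p = 2.77e-06 in the fit without the FPKM filter). Adam11 (-0.74 ± 0.07, adjusted p = 1.26e-05), Adam22 (-0.57 ± 0.06, adjusted p = 5.91e-05) and Adam23 (-0.55 ± 0.06, adjusted p = 3.65e-05) were lower than sham, as was Adamts20 (-0.73 ± 0.09, adjusted p = 0.00012). Mmp2 was higher (0.67 ± 0.06, adjusted p = 1.04e-05), as was Adamts9 in the fit without the FPKM filter (1.04 ± 0.08, adjusted p = 7.63e-06). Mmp28 had 0.53, 0.53 and 0.15 FPKM in sham and 1.51, 0.73 and 1.25 FPKM in SNI + G15 libraries (1.49 ± 0.43, adjusted p = 0.0228 in that fit). With the filter, its call was lost without sham replicate 3 (adjusted p = 0.0525) or SNI + G15 replicate 1 (adjusted p = 0.0728). Timp4 passed narrowly (0.27 ± 0.10, adjusted p = 0.0461) and lost the call in 8 of 14 alternatives, including those without any 1 library but SNI + G15 replicate 2, and Mmp24 (-0.17 ± 0.06, adjusted p = 0.0418) lost it in 11, including those without any 1 library. Without SNI + G15 replicate 3, Mmp15 and Adamts10 were not called either (adjusted p = 0.0611 and 0.0525), and Adam8 was called higher (0.38 ± 0.13, adjusted p = 0.0432). Among members whose calls the filter favoured, Adamts12 then lost the call and Adam12 gained it.

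**Figure D5:**
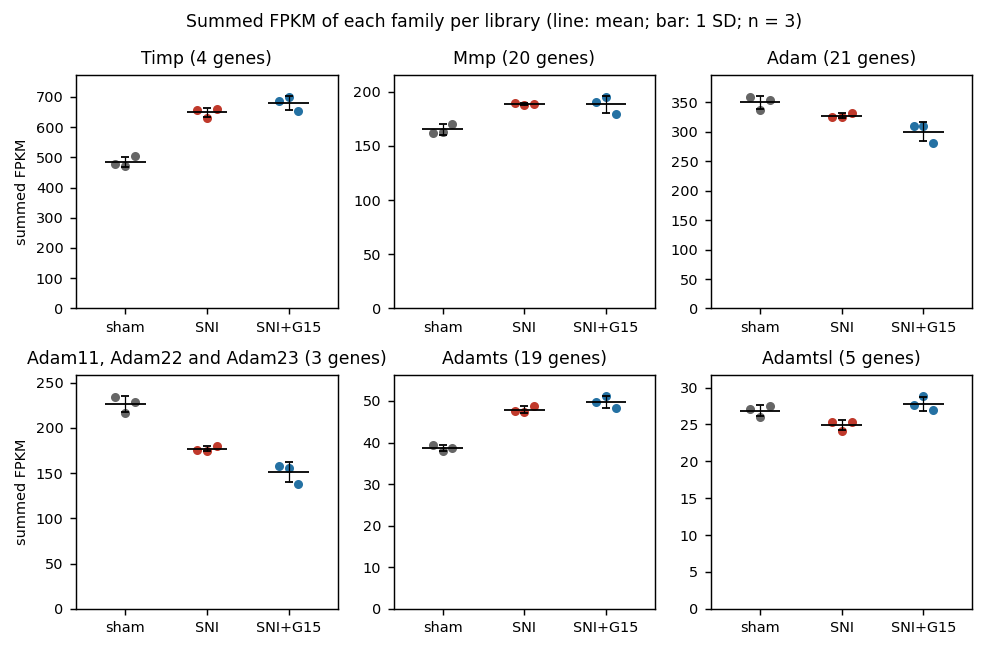
Summed FPKM of the Timp, Mmp, Adam, Adamts and Adamtsl genes and of Adam11, Adam22 and Adam23 together in each library (points), with group means (line) and SD (bar, n = 3), each axis starting at 0. The Timp sum is higher in all 6 injured libraries than in sham, and the 3 neuronal ADAMs stand at means of 226, 177 and 151 FPKM in the order of the groups.

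Other genes of the same system were read from 3 lists. Of 28 tested regulators and partners of metalloproteinases, 9 were higher and 10 lower in SNI compared with sham (23.3% and 22.4% of all tested genes, median log2 fold change 0.01). A2m, the broad protease trap alpha-2-macroglobulin, rose at both steps, with 5.03, 5.23 and 5.20 FPKM in sham, 37.4, 37.2 and 35.9 FPKM in SNI and 75.4, 73.8 and 65.0 FPKM in SNI + G15 libraries (log2 fold change 2.81 ± 0.05 for SNI over sham, adjusted p = 4.13e-11, and 0.97 ± 0.06 for SNI + G15 over SNI, adjusted p = 2.31e-05). Plau, the urokinase that starts plasmin and MMP activation, rose as well (0.94 ± 0.12, adjusted p = 7.82e-05), as did Cd44, a hyaluronan receptor that docks MMPs at the cell surface (0.72 ± 0.04, adjusted p = 3.11e-07), and Rhbdf2 and Frmd8, partners that ADAM17 needs to mature and stay at the surface (0.42 ± 0.06, adjusted p = 0.000342, and 0.40 ± 0.04, adjusted p = 2.49e-05). Furin, which removes the pro-domain of many of these enzymes, was not called (0.01 ± 0.05, adjusted p = 0.942), nor was Rhbdf1 (0.10 ± 0.06, adjusted p = 0.179). The membrane-anchored MMP inhibitor Reck was slightly lower (-0.15 ± 0.05, adjusted p = 0.0406). Larger falls were called for Tll1 (-0.63 ± 0.09, adjusted p = 0.0002), Pcsk5 (-0.54 ± 0.09, adjusted p = 0.000663) and Papln (-0.36 ± 0.05, adjusted p = 0.000233). Tspan15 (-0.32 ± 0.05, adjusted p = 0.000263) and Pcsk6 (-0.24 ± 0.06, adjusted p = 0.00538) were lower too. Between SNI + G15 and SNI, 6 of the 28 were higher and 3 lower (7.98% and 7.25% of all tested genes), and between SNI + G15 and sham 13 and 8 (21.4% and 21.9%).

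Of 20 tested matrix proteins cut by ADAMTS and MMP proteases, 6 were higher and 8 lower in SNI compared with sham (23.3% and 22.4% of all tested genes, median log2 fold change -0.07). The lectican Bcan, a substrate of ADAMTS4, fell from 36.4 ± 1.56 to 22.5 ± 0.34 FPKM (-0.72 ± 0.05, adjusted p = 7.15e-07), and the hyaluronan link proteins Hapln1 (-0.99 ± 0.10, adjusted p = 1.86e-05) and Hapln4 (-0.87 ± 0.06, adjusted p = 5.66e-07) fell with it. The other lecticans Vcan (1.16 ± 0.10, adjusted p = 5.66e-06) and Ncan (0.96 ± 0.09, adjusted p = 8.95e-06) rose, as did fibronectin, Fn1 (0.63 ± 0.04, adjusted p = 8.72e-07). Elastin, Eln, measured 8.53, 8.36 and 8.37 FPKM in sham and 4.61, 3.59 and 4.19 FPKM in SNI libraries (-1.06 ± 0.08, adjusted p = 2.09e-06). The largest fall of the list was that of Fmod (-1.33 ± 0.07, adjusted p = 1.30e-07). Between SNI + G15 and SNI, 8 were higher and 4 lower (7.98% and 7.25% of all tested genes). The fibroblast proteoglycans Dcn (0.53 ± 0.04, adjusted p = 7.64e-05) and Bgn (0.57 ± 0.05, adjusted p = 0.000148) and Fn1 (0.48 ± 0.05, adjusted p = 0.000684) rose. The lectican Vcan (0.46 ± 0.08, adjusted p = 0.00574), Fbn1 (0.56 ± 0.05, adjusted p = 0.000321), Fmod (0.42 ± 0.09, adjusted p = 0.0194), Tnc (0.29 ± 0.04, adjusted p = 0.00291) and Lamb1 (0.14 ± 0.04, adjusted p = 0.047) rose too. Bcan (-0.43 ± 0.06, adjusted p = 0.00163), Hapln1 (-0.85 ± 0.14, adjusted p = 0.00444), Hapln4 (-0.53 ± 0.07, adjusted p = 0.00208) and Ncan (-0.35 ± 0.07, adjusted p = 0.0156) fell. Against sham, 9 of the 20 were higher and 6 lower in SNI + G15 (21.4% and 21.9% of all tested genes).

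Of 18 tested proteins shed by ADAM10 and ADAM17, 7 were higher and 5 lower in SNI compared with sham (23.3% and 22.4% of all tested genes, median log2 fold change 0.10). Chl1, a neuronal adhesion molecule, had 11.99, 10.5 and 10.6 FPKM in sham and 30.4, 31.1 and 31.1 FPKM in SNI libraries (1.46 ± 0.05, adjusted p = 7.91e-09). The membrane chemokine Cxcl16 (0.92 ± 0.06, adjusted p = 7.77e-07) and the TNF receptors Tnfrsf1a (0.79 ± 0.05, adjusted p = 4.32e-07) and Tnfrsf1b (0.78 ± 0.14, adjusted p = 0.00111) rose, whereas the Schwann cell growth factor Nrg1 (-0.46 ± 0.05, adjusted p = 1.86e-05) and the sorting receptor Sorl1 (-0.58 ± 0.04, adjusted p = 1.97e-06) fell. Between SNI + G15 and SNI, 3 were called, a share close to the 15.2% of all tested genes. Hbegf was the single one called higher (0.58 ± 0.07, adjusted p = 0.00134), and Nrg1 (-0.19 ± 0.05, adjusted p = 0.0344) and Sorl1 (-0.33 ± 0.04, adjusted p = 0.00176) were lower. Against sham, 7 were higher and 3 lower in SNI + G15 (21.4% and 21.9% of all tested genes).

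The 21 members below 1 FPKM in all libraries included 10 Adam, 6 Adamts and 5 Mmp genes. Adam33, known from airway smooth muscle and mesenchyme, had 34, 41 and 56 counts in sham, 31, 21 and 11 in SNI and 19, 16 and 22 in SNI + G15 libraries, and was lower in SNI in the fit without the FPKM filter (log2 fold change -1.09 ± 0.33, edgeR adjusted p = 0.0232). Adam2, Adam5, Adam6, Adam18 and Adam24, most of which are known from testis and sperm, had at most 1 count in any library.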

How the data were processed

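Bulk RNA-Seq of rat DRG was analysed for 9 libraries, 3 each from sham, SNI and SNI + G15 rats. For genes and transcripts the authors deposited FPKM, with a gene's value being the sum over its transcripts, and estimated counts per gene that need not be whole (17 of the 48 tested members had such a value, so reads shared with similar genes may have been split). The columns named for a control were taken as sham. The labels name a mouse build (GRCm38, mm10) and an extraction from another cell type. The aligner and annotation behind the values are not given in the sources used here, so coordinates are only those of the RefSeq promoter table (GRCr8), matched by gene ID.

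After rounding, the estimated counts entered edgeR 4.0.16 in R 4.3.3 (TMM, quasi-likelihood test, 2 groups per fit, Benjamini-Hochberg adjustment over 14305 genes with FPKM of at least 1 in at least 1 library). The procedure was also run on simulated counts with fewer changed genes and larger changes than most called here. That run does not test its calls in a setting like these data. Alternatives used DESeq2 1.42.0, limma 3.58.1, RLE, other filters, all 9 libraries, a replicate block and each library left out. Summed FPKM was compared by exact permutation. A transcript share was reported if it shifted by at least 10 points without overlap. The methods of the study name DESeq2.

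Named were called members with a log2 fold change of at least 0.5, the 10 highest in FPKM, the Timp genes, a fixed list of well-known members, and Mmp12 and Adam33. The members, lists and rules were chosen with earlier results of these data known. The planned search for protein motifs was not run. The values of one listed gene are not reported here. Deposited group averages, fold changes and the remaining files were not used.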

Additional observations from a re-analysis of the deposited data

How the results depend on the processing

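In both comparisons with sham, the counts of members called in each direction stayed within 1.5 times under all alternatives, as did those of the listed genes. Between SNI + G15 and SNI, 8 members were called higher and 4 lower. Higher calls numbered 5 with the DESeq2 Wald test, 5 in limma-trend with either pseudocount and 4 to 10 with 1 library left out. Lower calls numbered 0 to 5 with 1 library left out. With the replicate number as a block, 5 members were called higher and 0 lower. Of all tested genes, edgeR called 2179, DESeq2 1854 and limma-trend 1803 and 1791 with a pseudocount of 1 and 0.1. Their numbers with the block or with 1 library left out are not given here. Deviations of same-numbered libraries correlated between -0.125 and 0.092, so no pairing by number was seen. Whether same-numbered libraries share a batch was not tested. Of the listed genes in that comparison, 15 were called higher and 9 lower, and 9 to 18 and 5 to 10 with 1 library left out, an alternative chosen after seeing the data, as were those for summed FPKM and transcript shares. Over the 48 tested members and all alternatives, 2 changed direction in SNI against sham, 10 in SNI + G15 against SNI and 2 in SNI + G15 against sham, none of them called. Those named here are in SNI + G15 against SNI: with 1 library left out, the log2 fold change ranged from -0.0709 to 0.024 for Adam17, from -0.0484 to 0.0186 for Mmp15, from -0.0145 to 0.0606 for Mmp24, from -0.0552 to 0.0304 for Timp2, from -0.3852 to 0.0585 for Mmp3 and from -0.0235 to 0.0613 for Timp3, which was -0.0144 and -0.0146 in limma-trend with a pseudocount of 1 and 0.1. The causes were not tested. Between SNI + G15 and SNI, the difference in summed FPKM ranged from -3.62 to 4.0 for Mmp and from -15.1 to 8.94 for Timp without Timp1 with 1 library left out, and no other difference in a family sum and no reported transcript share changed sign. Counting limits the values of Mmp3, Mmp12, Mmp10 and Mmp7.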

Other observations

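Transcript shares were examined for the 37 members that reached 1 FPKM in all 9 libraries, of which 19 had more than 1 transcript, and 4 had a share that shifted by at least 10 percentage points without overlap between groups. Besides Mmp16, these were Adamts7, Adamts10 and Adamtsl5. One predicted transcript of Adamts7 gave 59.5%, 65.6% and 57.4% of the gene's FPKM in sham and 45.3%, 48.5% and 44.9% in SNI libraries. One of 5 transcripts of Adamts10 gave 40.1%, 34.7% and 40.4% in sham and 31.5%, 22.3% and 21.5% in SNI libraries, and in the SNI + G15 group it was listed at 0 in one library and at 42.2% and 54.1% in the others. One of 6 transcripts of Adamtsl5 gave 7.0%, 13.2% and 16.4% in SNI and 32.5%, 27.0% and 17.7% in SNI + G15 libraries, with 18.5%, 20.8% and 43.4% in sham. All 3 genes, and Mmp16 as well, had FPKM values under 8, so each share rests on few fragments. No test was run on the shares. Genes outside the members were not examined, so the count of 4 has no share over all genes beside it.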
